A study of Homo sapiens with 6 samples.

Results

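The Polycomb genes examined here were EZH1, EZH2, EED, SUZ12, JARID2, RING1, RNF2, BMI1, CBX2 and CBX8, which encode subunits of Polycomb repressive complexes 1 and 2 (PRC1 and PRC2). They were taken by symbol from a fixed list, and all 10 were found, each with a single Ensembl identifier, among the 62754 genes of the deposited table. RNA-seq was performed on 3 control and 3 FAM60A-knockout libraries of HEK293, an adherent human embryonic kidney line. The characteristics in the labels call the line HEK293T, the derivative with SV40 large T antigen, for control and knockout alike. Knockout cells came as a pool selected with puromycin, not a single clone, that had been transfected with Cas9 and guides to several regions of FAM60A (SINHCAF), a subunit of the Sin3/HDAC corepressor. What the control cells received was not given in the sources used here. Nor was it stated whether replicates came from separate cultures, so p-values measure only the spread between these libraries.

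PRC2 places methyl groups on lysine 27 of histone H3. Its catalytic subunit is EZH2 or the related EZH1, and it works only together with SUZ12 and EED, while JARID2 joins some PRC2 assemblies and helps to recruit them. PRC1 places ubiquitin on histone H2A through RING1 or RNF2, paired with a PCGF protein such as BMI1. In canonical PRC1 a CBX protein, such as CBX2 or CBX8, binds the mark that PRC2 leaves. Both complexes keep developmental regulators silent.

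Total counts were 92736586 to 93346824 in control and 88361827 to 91279417 in knockout libraries. FAM60A itself had 11028, 10165 and 12792 counts in control replicates 1 to 3 and 5684, 5793 and 5449 in the knockout libraries. Its log2FC (log2 fold change, knockout over control) was -0.85 (standard error, SE, 0.11, edgeR adjusted p = 0.00863), and its level differed at p = 0.1 in an exact permutation test (two-sided), the limit of what 3 against 3 libraries can reach. Control replicate 3 stood apart. It differed at least 4-fold from the other controls in 1664 to 1694 genes, and those controls differed from each other in 25. It differed from the knockout libraries in 784 to 843 genes. Control replicates 1 and 2 differed from the knockout libraries in 1368 to 1485, fewer than from control replicate 3. The knockout libraries differed from each other in 23 to 38. Control replicate 3 is therefore shown apart, and fits are given with and without it. SEs and p-values of the fits without it measure only the spread among libraries that lay close within each group. Mitochondrial transcripts took 3.97 to 5.57% of the counts in control and 8.7 to 10.1% in knockout libraries, and their part in the results was not tested beyond a fit without these genes. Of 8 markers of HEK293 cells, 7 had at least 100 counts in every library. The summed level of the 8 was 1050 to 1800 CPM in control and 860 to 1010 in knockout libraries. CPM are counts scaled to a common total by library size and by a TMM factor for each library. The summed levels were 86.9 to 137 and 118 to 128 CPM for 7 markers of MDA-MB-231, the other line of the study, and 23.5 to 29.1 and 25.2 to 25.5 CPM for 4 fibroblast markers. Single fibroblast markers moved in opposite directions: COL1A1 fell from 23.5 to 14.9 CPM (edgeR adjusted p = 0.0361), LUM rose from 1.77 to 8.31 CPM (0.0463), and DCN had at most 1 count in any control and 30 to 33 in the knockouts (0.00373). Of the MDA-MB-231 markers, PLAU alone had an adjusted p of at most 0.05, and it rose from 2.67 to 4.55 CPM (edgeR adjusted p = 0.0226). Of the others, S100A4, TGFBI and CAV1 fell, from 2.28 to 1.16, 2.79 to 0.483 and 80.3 to 63.3 CPM. CD44, AXL and CXCL8 rose, from 27.8 to 35.4, 0.669 to 0.966 and 3.41 to 16.3 CPM. The part of these markers in the results was not tested. For 4 haematopoietic markers, of which PTPRC and CD3E had at most 10 counts in any library, the summed levels were at most 0.735 CPM.

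At the RNA level, 3 of the 10 Polycomb genes passed the test in FAM60A-knockout cells, where 16.6% of all genes tested passed. CBX8, EZH1 and RING1 fell to 58.2%, 67.7% and 72.9% of the control level. Every knockout library lay below every control library for these genes and also for EZH2, SUZ12 and CBX2. Of all genes tested, 20.1% lay wholly lower in the same way. JARID2, RNF2 and BMI1 were low in control replicate 3 too and overlapped between the groups, and EED showed the smallest fitted change. The bulk counts cannot tell a change in RNA per cell from a change in the share of cells that make it.

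The regions before the start sites of 3 PRC2 genes are shown because each holds a word of the E2F type in its promoter window, and E2F factors are known activators of PRC2 genes. The sequences are from RefSeq on GRCh38.p14, in the direction of transcription. They run from 250 bases before the start site to the base before it, or for EZH2 through the first 10 transcribed bases, and capitals mark the word. They lie at chr17:42745041-42745290 (EZH1, reverse strand), chr17:31936757-31937006 (SUZ12, forward strand) and chr7:148884282-148884541 (EZH2, reverse strand).
EZH1: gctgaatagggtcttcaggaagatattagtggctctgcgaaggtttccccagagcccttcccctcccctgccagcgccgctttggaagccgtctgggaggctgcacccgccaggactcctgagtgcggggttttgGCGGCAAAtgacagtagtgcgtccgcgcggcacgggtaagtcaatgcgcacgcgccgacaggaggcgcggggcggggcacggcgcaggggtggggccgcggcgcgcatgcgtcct
SUZ12: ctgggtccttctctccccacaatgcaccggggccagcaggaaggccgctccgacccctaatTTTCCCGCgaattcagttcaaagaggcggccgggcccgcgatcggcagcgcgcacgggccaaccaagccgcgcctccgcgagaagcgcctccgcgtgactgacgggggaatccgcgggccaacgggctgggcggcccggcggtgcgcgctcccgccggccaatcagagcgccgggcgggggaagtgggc
EZH2: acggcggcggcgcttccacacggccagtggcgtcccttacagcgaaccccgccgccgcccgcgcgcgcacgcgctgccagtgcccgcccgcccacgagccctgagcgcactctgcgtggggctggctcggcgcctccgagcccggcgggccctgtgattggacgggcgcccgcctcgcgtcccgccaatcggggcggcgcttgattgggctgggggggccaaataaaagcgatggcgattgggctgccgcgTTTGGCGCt
The words searched were TTTGGCGC, TTTCGCGC, TTTCCCGC and TTTGCCGC on both strands, chosen with the members' values known. The word begins 115 bases before the start in EZH1 and 189 bases before it in SUZ12, and in EZH2 it begins 1 base past the start. RefSeq windows of 300 bases (250 before and 50 after the start) were found for 8 of the 10 genes, 11 windows in all. No entry was found for CBX2 and CBX8. Of the 11 windows 3 held a word, against 3.31% of all 35116 windows. Each word searched holds a CpG, and no comparison with windows of like CpG content was made. CpG dinucleotides were above the median of all windows, 14, in all 11, with 30 in EZH1, 40 in SUZ12, 46 in the EZH2 window shown and 16 in EED. The NRF1 motif was in 0 of the 11 windows, against 1.24% of all windows. The cyclic AMP response element TGACGTCA was in 1, a window of JARID2, against 1.85%. These matches describe letters only.

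**Figure D1:**
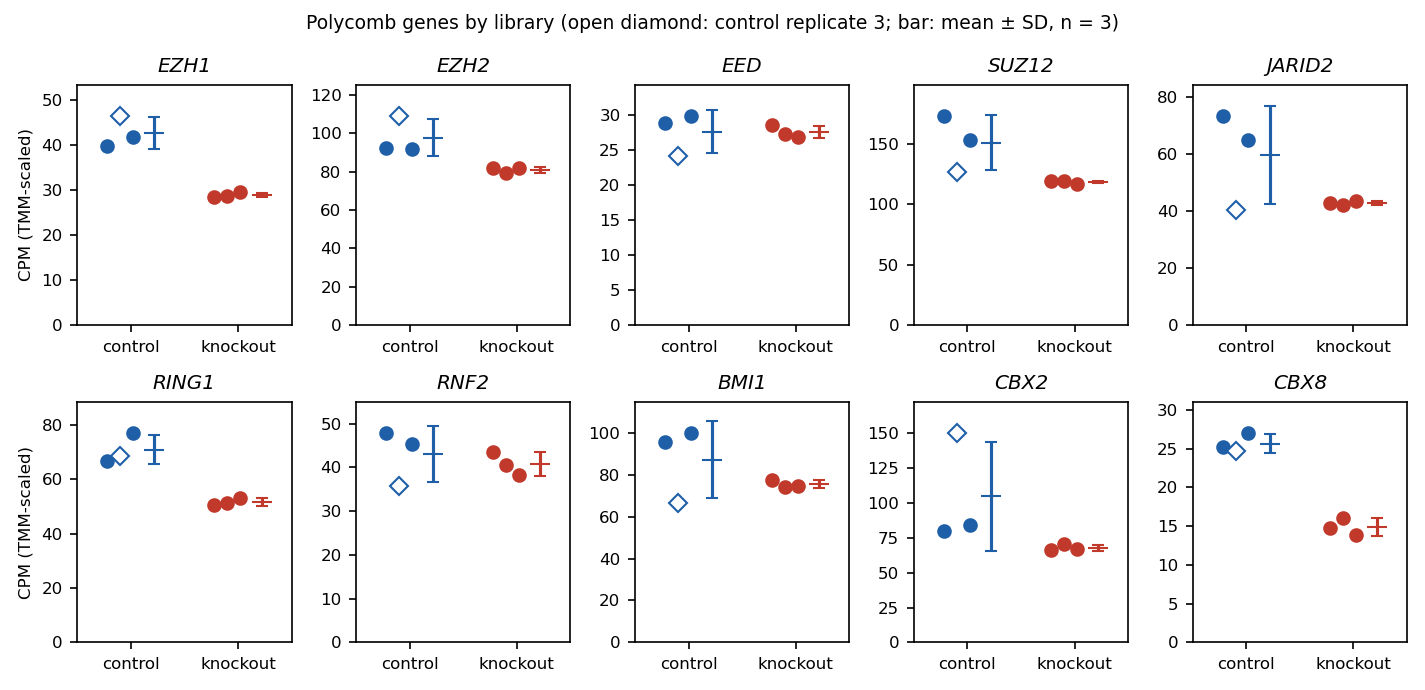
Level of each Polycomb gene in every library, in TMM-scaled CPM on an axis from 0, with controls in blue and knockouts in red. The open diamond is control replicate 3, and the bars are the mean ± SD (n = 3). For EZH1, EZH2, SUZ12, RING1, CBX2 and CBX8 all knockout points lie below all control points, as for 20.1% of all genes tested.

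Across the members, 3 of 10 were called lower and 0 higher at an edgeR adjusted p of at most 0.05. Of all 20992 genes tested, 8.67% were called lower and 7.96% higher (16.6% in either direction). With DESeq2 and with limma-voom the same 3 were called, again with none higher. Unadjusted p was under 0.05 for 6 members with edgeR, 6 with DESeq2 and 4 with limma-voom. Over all genes that share was 34.5% with edgeR and 35.1% with limma-voom. With DESeq2, 7937 genes had such a p, and 23587 were given an adjusted p. No member called had a log2FC beyond 1 in size, which 7.06% of all genes reached together with the same adjusted p. Knockout libraries lay wholly below the controls for 6 of the 10 members, against 20.1% of all genes. The median log2FC was -0.40 over the members and -0.01 over all genes, and it was -0.00 over the 10218 genes with a mean of at least 10 CPM, the range in which every member lies. Without control replicate 3, 9 of 10 members were called lower and 0 higher. Of all 21686 genes, 33.2% were then called lower and 32.4% higher (65.6% in either direction). Among the 10218 genes with a mean of at least 10 CPM, 19.4% were called with all libraries. Without control replicate 3, 73.4% of them were called (4038 lower and 3466 higher). The median over the members was then -0.45.

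**Figure D2:**
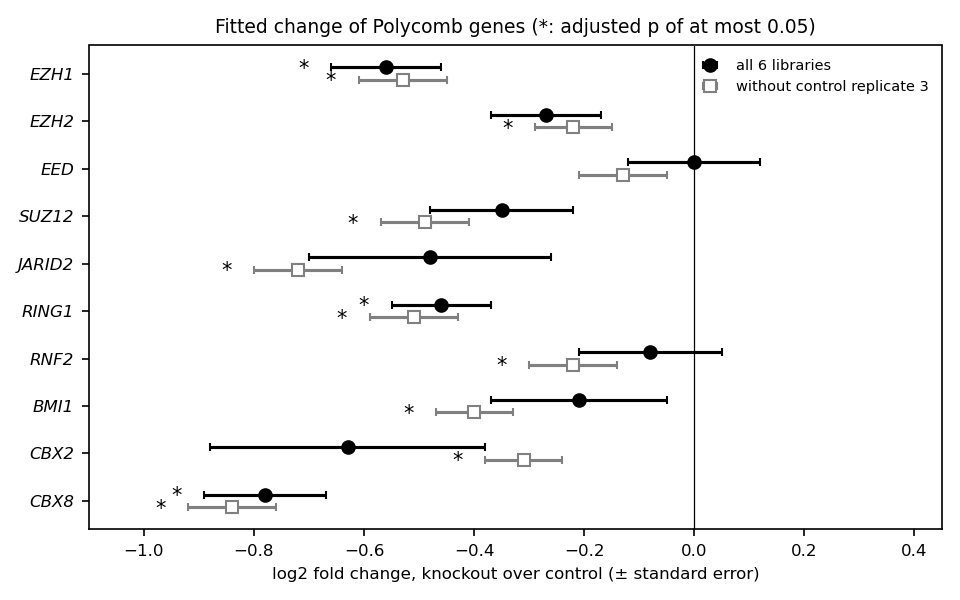
Fitted log2FC of each Polycomb gene, knockout over control, with its SE, from all 6 libraries (filled circles) and without control replicate 3 (open squares). Asterisks mark an edgeR adjusted p of at most 0.05, which 3 genes reached in the first fit and 9 in the second. Of all genes tested, 16.6% reached it in the first fit and 65.6% in the second.

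Among the PRC2 catalytic subunits, EZH1 (ENSG00000108799, chr17:42700275-42745040 on GRCh38.p14) fell. EZH1, the form known for its presence in cells that divide little, had 39.7, 41.9 and 46.5 CPM in control replicates 1, 2 and 3 and 28.5, 28.7 and 29.5 CPM in the knockout libraries. Control replicate 3 was the highest of all, and the groups did not overlap. The log2FC was -0.56 (SE 0.10, edgeR adjusted p = 0.0164). It lay between -0.67 and -0.53 over the alternatives, with an adjusted p from 2.74e-06 to 0.11. The call was lost without any 1 of the knockout libraries (adjusted p = 0.0847 to 0.11) or without control replicate 2 (0.0637).

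EZH2 (ENSG00000106462, chr7:148807383-148884291), the subunit that prevails in dividing cells, had 92.2, 91.9 and 109 CPM in control replicates 1 to 3, against 81.7, 79.1 and 81.7 CPM in the knockouts. The groups did not overlap here either, and control replicate 3 was again the highest. The log2FC of -0.27 (SE 0.10) did not pass the test (edgeR adjusted p = 0.108). Without control replicate 3 it was -0.22 with a SE of 0.07, and it did (edgeR adjusted p = 0.0121). With library size in place of TMM it was -0.38 and also passed. That scaling moved the median of all genes to -0.12 and the calls over all genes from 1820 lower and 1671 higher to 2668 lower and 1235 higher.

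The ratio of EZH2 to EZH1 within a library does not depend on the scaling between libraries. On the log2 scale it was 1.22, 1.13 and 1.23 in control replicates 1 to 3, against 1.52, 1.46 and 1.47 in the knockouts, a difference of 0.29 without overlap. Control replicate 3 sat with the other controls. By exact permutation (two-sided) p was 0.1, the limit of this design, and 0.2 after Benjamini-Hochberg adjustment over the 4 ratios compared.

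The other core subunits of PRC2 differed in pattern. SUZ12 (ENSG00000178691, chr17:31937007-32001038), which holds the complex together, had 173, 153 and 127 CPM in control replicates 1 to 3, against 119, 119 and 117 CPM in the knockouts. The knockout libraries were nearly equal, and control replicate 3 lay just above them. Its fitted log2FC was -0.35 (SE 0.13, edgeR adjusted p = 0.108). In the fit without control replicate 3 it was -0.49 (SE 0.08, edgeR adjusted p = 9.36e-06). EED (ENSG00000074266, chr11:86244753-86287615), which reads the methyl mark and stimulates the enzyme, had 28.9, 29.9 and 24.1 CPM in control replicates 1 to 3, against 28.6, 27.3 and 26.9 CPM in the knockouts. The knockout values lay between those of control replicate 3 and the other controls. Its log2FC was -0.00 (SE 0.12, edgeR adjusted p = 0.985), and without control replicate 3 it was -0.13 with a SE of 0.08 (edgeR adjusted p = 0.155). EED was the only member that did not pass in that fit.

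JARID2 (ENSG00000008083, chr6:15246069-15522042), the accessory subunit, had 73.4, 65.1 and 40.5 CPM in control replicates 1 to 3, against 43.0, 42.0 and 43.5 CPM in the knockouts. Control replicate 3 lay below every knockout library. A log2FC of -0.48 (SE 0.22) did not pass (edgeR adjusted p = 0.171). In the fit without control replicate 3 it was -0.72 (SE 0.08, edgeR adjusted p = 3.74e-08), the largest change of a PRC2 member in that fit. Over the alternatives its adjusted p reached 0.374.

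Among the PRC1 ubiquitin ligases, RING1 (ENSG00000204227, chr6:33208500-33212716) fell. It had 66.8, 76.9 and 68.6 CPM in control replicates 1 to 3, against 50.4, 51.3 and 53.0 CPM in the knockouts. Control replicate 3 lay between the other controls, and the groups did not overlap. For RING1 the log2FC was -0.46 (SE 0.09, edgeR adjusted p = 0.0239), between -0.57 and -0.40 over the alternatives. Its adjusted p then ran from 7.76e-06 to 0.135, and of the fits that left out a library only that without control replicate 3 kept the call. Without control replicate 1 or 2 the adjusted p was 0.0603 or 0.0888, and without knockout replicate 1, 2 or 3 it was 0.135, 0.103 or 0.113.

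RNF2 (ENSG00000121481, chr1:185045558-185102603), the more widely used ligase subunit, had 47.8, 45.4 and 35.8 CPM in control replicates 1 to 3, against 43.6, 40.5 and 38.2 CPM in the knockouts. Control replicate 3 was the lowest of the 6 libraries. For RNF2 the log2FC was -0.08 (SE 0.13, edgeR adjusted p = 0.719), and without control replicate 3 it was -0.22 (SE 0.08, edgeR adjusted p = 0.0153). The log2 ratio of RNF2 to RING1 was -0.48, -0.76 and -0.94 in control replicates 1 to 3, against -0.21, -0.34 and -0.47 in the knockouts. The groups were separated by 0.01, between control replicate 1 and knockout replicate 3. The mean difference was 0.39 (two-sided exact permutation p = 0.1, adjusted p = 0.2).

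BMI1 (ENSG00000168283, chr10:22321099-22331706), the PCGF protein best known as a repressor of the INK4 locus, had 95.4, 99.8 and 66.3 CPM in the controls. The knockout libraries had 77.6, 74.2 and 74.5 CPM and lay between control replicate 3 and the other controls. For BMI1 the log2FC was -0.21 (SE 0.16, edgeR adjusted p = 0.403), or -0.40 without control replicate 3 (SE 0.07, edgeR adjusted p = 5.58e-05). BMI1 shares exons with the readthrough gene COMMD3-BMI1, which had at most 4 counts in any library. COMMD3, the gene upstream, moved the other way, with 17.8, 20.6 and 18.4 CPM in control replicates 1 to 3, against 29.4, 25.0 and 27.1 CPM in the knockouts (log2FC 0.52, SE 0.12, edgeR adjusted p = 0.0317, range 9.54e-05 to 0.151 across alternatives). PCGF2, the nearest relative of BMI1, fell from 27.6 ± 2.50 to 18.2 ± 2.51 CPM (SD, n = 3; log2FC -0.60, edgeR adjusted p = 0.0359). The log2 ratio of BMI1 to PCGF2 was 1.94, 1.76 and 1.21 in control replicates 1 to 3, against 2.18, 1.81 and 2.18 in the knockouts, which overlapped (two-sided exact permutation p = 0.2, adjusted p = 0.267). The mean difference of 0.42 dropped to 0.21 without control replicate 3.

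CBX8 (ENSG00000141570, chr17:79792132-79797077), a chromodomain subunit of canonical PRC1, showed the largest fitted change of the 10 genes. Its counts were 2447, 2590 and 2383 in control replicates 1 to 3, against 1242, 1413 and 1224 in the knockouts, or 25.6 ± 1.21 against 14.9 ± 1.13 CPM (SD, n = 3). Control replicate 3 lay with the other controls, far from the knockouts. The log2FC was -0.78 (SE 0.11, edgeR adjusted p = 0.0104), and it stayed between -0.89 and -0.72 over the alternatives. Its adjusted p then ran from 1.55e-08 to 0.0815. The call was lost without any 1 of the knockout libraries (0.0516 to 0.0815) or without control replicate 2 (0.0514).

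CBX2 (ENSG00000173894, chr17:79777311-79787983), the CBX protein known for compacting chromatin, had 79.6, 84.5 and 150 CPM in control replicates 1 to 3, against 66.4, 70.2 and 66.8 CPM in the knockouts. Control replicate 3 was the highest by a wide margin, in the opposite direction from its place in JARID2, BMI1 and RNF2. A log2FC of -0.63 (SE 0.25) did not pass (edgeR adjusted p = 0.132). Without that library it was smaller, -0.31, but the SE was 0.07 and it passed (edgeR adjusted p = 0.00107). CBX2 and CBX8 are neighbours, 4.15 kb apart in RefSeq. The log2 ratio of CBX8 to CBX2 was -1.66, -1.65 and -2.61 in control replicates 1 to 3, against -2.17, -2.12 and -2.27 in the knockouts. The mean difference of -0.22 (two-sided exact permutation p = 0.4, adjusted p = 0.4) rested on where control replicate 3 lay. It became -0.53 without that library and -0.06 or -0.05 without control replicate 1 or 2.

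**Figure D3:**
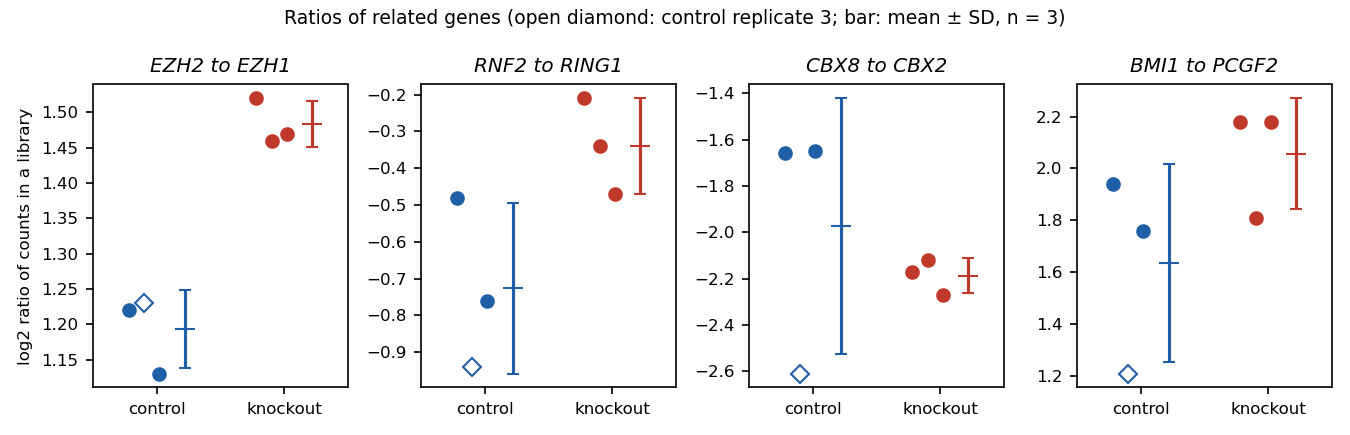
Log2 ratio of the counts of related genes within each library, with controls in blue (open diamond, control replicate 3), knockouts in red and bars for the mean ± SD (n = 3). The vertical axes differ and do not start at 0. EZH2 to EZH1 is higher in all 3 knockout libraries, and CBX8 to CBX2 runs from -2.61 to -1.65 in the controls.

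Control replicate 3 did not lie on a single side for these genes. Relative to the mean of control replicates 1 and 2, on the log2 CPM scale, it was lower by a difference of -0.77 in JARID2, -0.56 in BMI1, -0.38 in RNF2, -0.36 in SUZ12 and -0.29 in EED. In these genes the knockout differences were -0.69, -0.37, -0.19, -0.46 and -0.09, so that control replicate 3 was at or beyond the knockout level in all of them but SUZ12. It was higher by 0.87 in CBX2, 0.25 in EZH2 and 0.19 in EZH1, and differed by -0.06 in RING1 and -0.08 in CBX8. Of the 9 members called lower without control replicate 3, this library was nearer to the knockout mean than to the other controls in 4 (44.4%). Among all 7202 genes called lower in that fit, it was nearer to the knockout mean in 62.0%.

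**Figure D4:**
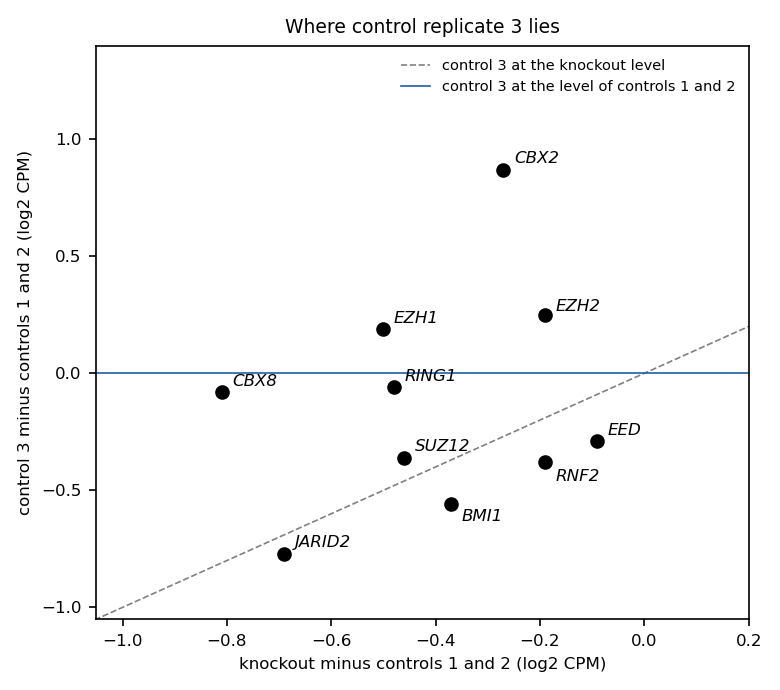
Each Polycomb gene placed by the knockout mean (horizontal) and by control replicate 3 (vertical), both as differences in log2 CPM from the mean of control replicates 1 and 2. Genes on the solid line have control replicate 3 at the level of the other controls, as RING1 and CBX8 nearly do, and genes on the dashed line have it at the knockout level.

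The genes were also ranked by level per length, as CPM per kb of the canonical GENCODE transcript (SD, n = 3). In control cells RING1 (40.7 ± 3.10), EZH2 (36.8 ± 3.74) and SUZ12 (33.5 ± 5.13) were highest, and neighbours in this order lay within their spread. BMI1 (24.6 ± 5.14) and CBX2 (22.6 ± 8.54) followed, also within their spread of each other. EED (13.2 ± 1.50) and RNF2 (12.6 ± 1.86) could not be separated, nor could JARID2 (9.94 ± 2.85) and EZH1 (9.22 ± 0.751). CBX8 was lowest at 6.82 ± 0.322. In the knockout the order was the same except that EZH2 (30.5 ± 0.578) stood above RING1 (29.6 ± 0.769), a pair within about their spread, and CBX8 was again lowest at 3.97 ± 0.301. The order depends on the length used. Per kb of all annotated exons EZH2 stood at 9.07 and EED at 3.95 in the controls, below RNF2 at 11.0.

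The wider Polycomb system was examined with a list of 48 further names, chosen like the members with earlier results of these data known. Of these, 47 were found (PALI2 was not) and all 47 were tested. With edgeR 5 were called lower and 0 higher, 10.6% of the list against 16.6% of all genes, and the median log2FC was -0.13 against -0.01. Unadjusted p was under 0.05 for 17, where 34.5% of all genes had such a p. DESeq2 called 10 lower and 1 higher, where it called 21.9% of all genes. The 5 were SCML1, KDM6A, E2F6, PCGF2 and ASXL1, and in each of them every knockout library lay below every control library. That held for 15 of the 47 in all, against 20.1% of all genes.

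E2F6, a repressor that brings variant PRC1 to E2F sites, fell from 27.8 ± 2.83 to 15.7 ± 0.904 CPM (SD, n = 3). Its log2FC was -0.82 (SE 0.12, edgeR adjusted p = 0.0111, with alternatives from 1.73e-09 to 0.0822). KDM6A, an X-linked demethylase that removes the PRC2 mark, fell from 70.3 ± 16.2 to 37.8 ± 0.620 CPM (log2FC -0.89, edgeR adjusted p = 0.0233). SCML1, a sterile alpha motif protein related to Polycomb group proteins, had 20465 counts in control replicate 3 and 11754 and 10541 in the other controls, against 6648, 6069 and 6166 in the knockout libraries (log2FC -1.02, edgeR adjusted p = 0.0434). ASXL1, the partner of the H2A deubiquitinase BAP1, had a log2FC of -0.51 (edgeR adjusted p = 0.0261). Over the alternatives the adjusted p reached 0.116 for KDM6A, 0.169 for SCML1, 0.139 for ASXL1 and 0.165 for PCGF2.

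By complex, the 7 PRC2 accessory genes tested beside JARID2 gave no call. Neither did RBBP4 and RBBP7, the histone-binding subunits that PRC2 shares with Sin3/HDAC, with log2FC values of 0.38 (edgeR adjusted p = 0.0637) and -0.10 (0.834). Without control replicate 3 both were called higher, RBBP4 at 0.43 (edgeR adjusted p = 9.7e-05) and RBBP7 at 0.30 (0.00511), so that the direction of RBBP7 turned. Control replicate 3 had 1030 CPM of RBBP7, against 488 and 515 CPM in the other controls. They were named, like the next genes, after their values were seen. The 3 PHC genes all had fitted values above 0, with a median of 0.45, and none passed the test with all libraries. Without control replicate 3 their median was 0.62, and 2 of the 3 were called higher. CBX6 and CBX7, relatives of CBX2 and CBX8, had log2FC values of 0.39 (edgeR adjusted p = 0.0504) and 0.26 (0.288). In the fit without control replicate 3, CBX6 passed at 0.28 (edgeR adjusted p = 0.00323), and CBX7, at 0.15, did not (0.193). PHC1, a polyhomeotic subunit of canonical PRC1, had 10.3, 8.70 and 15.0 CPM in control replicates 1 to 3. The knockouts had 18.1, 17.9 and 17.8 CPM (log2FC 0.66, edgeR adjusted p = 0.0829). PHC1 passed without control replicate 3, at 0.89 (edgeR adjusted p = 2.38e-08). Of the 8 genes of the BAP1 deubiquitinase complex, 7 had fitted values below 0 and 1 passed. Over all 20992 genes, 10628 had fitted values below 0 and 16.6% passed. Without control replicate 3, 24 of the 47 were called lower and 10 higher, 72.3% against 65.6% of all genes.

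**Figure D5:**
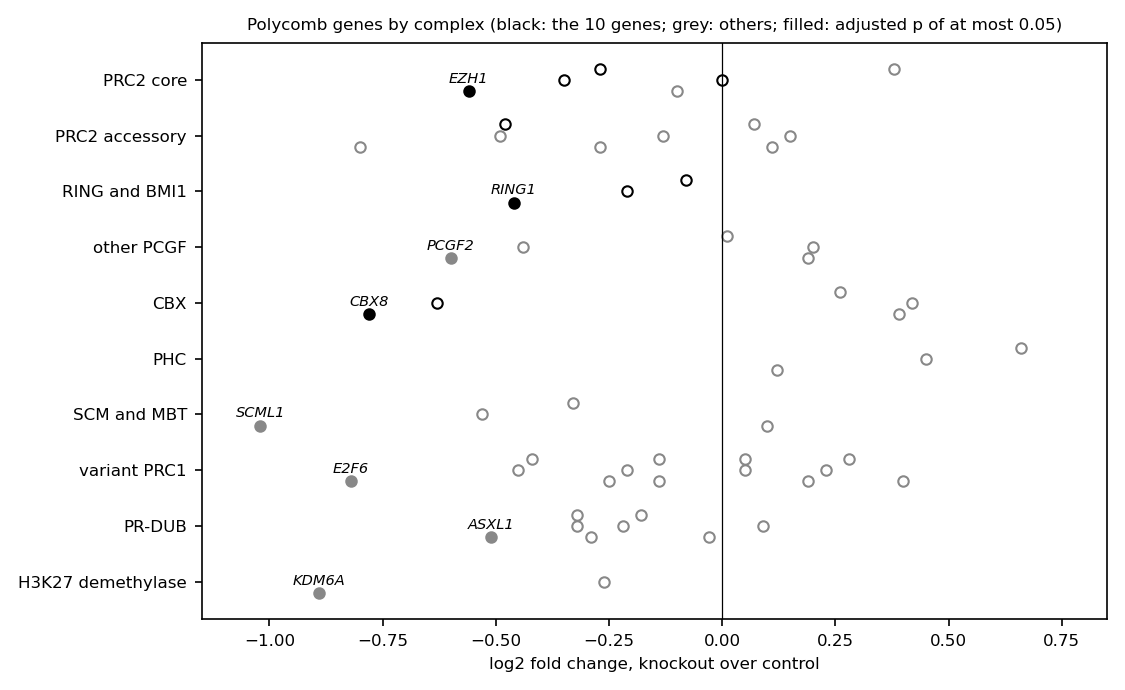
Log2 fold change (knockout over control, all 6 libraries) of the 10 Polycomb genes (black) and 47 further genes of the system (grey), grouped by complex. Filled symbols with names have an edgeR adjusted p of at most 0.05, which 16.6% of all genes tested reached. The 8 filled points all lie below 0, while the PHC genes lie above 0 without passing the test.

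The factors that read E2F sites were listed because they are known regulators of PRC2 genes. Of 10 E2F and RB family genes, all tested, 2 were called lower and 0 higher with edgeR (20.0% of the list, against 16.6% of all genes), and unadjusted p was under 0.05 for 6, against 34.5% of all genes. E2F4, the main repressive E2F of resting cells, fell from 119 ± 7.59 to 76.3 ± 1.21 CPM (SD, n = 3; log2FC -0.65, edgeR adjusted p = 0.00904, range 5.18e-08 to 0.0779). RBL2, the pocket protein p130 that binds it, fell from 68.1 ± 7.05 to 47.9 ± 0.368 CPM (log2FC -0.51, edgeR adjusted p = 0.0242, range 3.57e-07 to 0.125). The activators E2F1, E2F2 and E2F3 did not pass, and were named after their values were seen. E2F1 had a log2FC of -0.17 (edgeR adjusted p = 0.288), and -0.13 without control replicate 3 (0.140). E2F2 had 0.50 (edgeR adjusted p = 0.105), and 0.68 without that library, where it passed (4.43e-07). E2F3 went the other way, with -0.67 (edgeR adjusted p = 0.168), and -0.99 without that library, where it also passed (1.91e-10). Control replicate 3 had 5943 counts of E2F3, within the 5694 to 6404 of the knockouts, against 13576 and 12699 in the other controls. Of the 10, 6 were called lower and 2 higher without control replicate 3, where 33.2% and 32.4% of all genes were.

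Finally, 39 developmental and cell cycle genes commonly cited as Polycomb targets were followed. Their histone marks were not measured here. Of these, 36 were tested, and the others were not, with at most 10 counts in any library. With edgeR 5 were called lower and 1 higher, 16.7% of those tested against 16.6% of all genes, with a median log2FC of -0.12. PAX7, a muscle and neural crest regulator, had 319, 315 and 77 counts in control replicates 1 to 3, against 3, 6 and 1 in the knockouts (edgeR adjusted p = 0.00949). BARX1, a homeobox gene of the stomach and face, fell from 2.62 ± 0.902 to 0.783 ± 0.145 CPM (edgeR adjusted p = 0.0196). CDKN2B, which encodes the CDK inhibitor p15 at the INK4 locus, fell from 60.2 ± 24.5 to 23.9 ± 0.342 CPM (log2FC -1.33, edgeR adjusted p = 0.0378). Its counts were 7378, 6985 and 3090 in control replicates 1 to 3, against 1988, 2131 and 2114 in the knockouts, so that control replicate 3 lay nearer to the knockouts. The homeobox gene DLX1 and SIM2, which encodes a basic helix-loop-helix factor, fell with log2FC values of -0.43 (edgeR adjusted p = 0.0320) and -0.40 (0.0443). SIM1, a relative of SIM2, rose from 11.1 ± 1.61 to 18.4 ± 1.90 CPM (log2FC 0.73, edgeR adjusted p = 0.0286). Without control replicate 3, 13 were called lower and 12 higher, 69.4% of those tested against 65.6% of all genes. The adjusted p over the alternatives reached 0.0779 for PAX7, 0.113 for BARX1, 0.155 for CDKN2B, 0.153 for DLX1, 0.195 for SIM2 and 0.134 for SIM1.

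Other transcripts that could share reads with the members were few. The processed pseudogenes EZH2P1, RNF2P1, BMI1P1, EEDP1 and the pseudogene SUZ12P1 had at most 10 counts in any library, and the antisense gene JARID2-AS1 at most 18. The opposite-strand transcripts ENSG00000288809 over EED and ENSG00000262768 over CBX8 had at most 49 and 36, whereas every member had at least 1224 counts in every library.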

How the data were processed

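The 6 RNA-seq libraries were 3 of control and 3 of FAM60A-knockout HEK293 cells. The methods describe poly(A)-enriched, dUTP strand-specific libraries, Trimmomatic and Salmon on hg38. The submitters' processing notes name STAR 2.7.10b, featureCounts 2.0.0 and hg38, and the extraction notes name hg19, so the counting tool and its use of strand are uncertain. The authors deposited raw counts as whole numbers for each Ensembl gene. Of the 62754 genes, 60878 matched a symbol. No column was without a sample. Totals ran from 88361827 to 93346824.

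Libraries were grouped by their titles. Counts were fitted in R 4.3.3 with edgeR 4.0.16 (TMM, filterByExpr with a minimum count of 10, two-sided quasi-likelihood F-test, Benjamini-Hochberg adjustment over 20992 genes). CPM are TMM-scaled. A call is an adjusted p of at most 0.05. Ratios (prior count 0.5) and FAM60A were tested by exact permutation (two-sided) in Python 3.11.15 with scipy 1.17.1. Log2 CPM differences involving control replicate 3 used CPM + 0.05. Alternatives were DESeq2 1.42.0, limma-voom (limma 3.58.1, the package the study names) with quantile normalization, library size, no filter, at least 10 counts in every library, each library left out, the replicate number as a block and a prior count of 2 for ratios. Leaving out mitochondrial genes was an alternative added once the data had been seen. The fits were tested on simulated data. Lengths are from GENCODE v44, positions and promoters from RefSeq (GRCh38.p14).

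The members and lists were chosen with earlier results of these data known. The genes named were the 10 members, FAM60A, called genes of the lists (at most 12 and 10 by absolute log2 fold change for further Polycomb and target genes), partners in the ratios, and genes that can share reads with, or lie beside, a member. RBBP4, RBBP7, PHC1, CBX6, CBX7, E2F1, E2F2, E2F3 and the cell type markers fall outside this rule and were named after their values were seen. Amino acid sequences and raw reads were not used here.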

Additional observations from a re-analysis of the deposited data

How the results depend on the processing

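Over the 13 alternatives to the fit, 9 or 10 of the 10 Polycomb genes were fitted lower in the knockout, where 10628 of 20992 genes were in the main fit. The exception was EED, whose value turned to 0.0028 with at least 10 counts in every library and 0.0019 with the replicate block, and lay between -0.13 and 0.05 when a library was left out. The number of members called with all libraries was 3, except 4 with library size and 0 with the replicate block, and it was 0 to 9 when a library was left out. It was 9 without control replicate 3, 2 without control replicate 1, and 0 without control replicate 2 or any 1 of the knockout libraries, with unadjusted p under 0.05 for 5 and 3 members. Over all genes such a p was reached by 5372 of 21462 without control replicate 2. Without a knockout library it was reached by 4954 to 5528 of 21736 to 21873. No alternative brought a member past an absolute log2FC of 1. Leaving out a library gave 167 to 14221 calls over all genes (3491 with all), 0 to 34 among the further Polycomb genes, 0 to 25 among the targets and 0 to 8 among E2F and RB genes. With all libraries, the further Polycomb genes gave 9 calls with library size and 11 with DESeq2, and the targets 11 with DESeq2. The log2FC of FAM60A lay between -0.92 and -0.78 when a library was left out, and it lost its call without any 1 of the knockout libraries (edgeR adjusted p = 0.0571 to 0.0736).

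Deviations of same-numbered libraries from their group means correlated at 0.01, 0.03 and -0.04 across genes. Control replicate 3, which stood apart, weighs on the control means, so these values cannot show whether the replicate numbers pair the libraries. With the replicate block, 407 genes were called, 0 members, 0 further Polycomb genes, 1 target and 0 E2F and RB genes. Unadjusted p in this fit was under 0.05 for 4 members, 16 further Polycomb genes and 5 E2F and RB genes. Over all genes it was under 0.05 for 6388 of 20992. FAM60A then had -0.84 (edgeR adjusted p = 0.0551). No ratio changed direction. The effect of depth on these calls was not tested.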
